A study of Mus musculus with 2 samples.

Results

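The vascular endothelial growth factor (VEGF) and angiopoietin genes described here are 10 of the 31053 genes counted, chosen by name as the receptors Kdr, Flt1, Flt4, Nrp1, Tek and Tie1 and the ligands Vegfa, Vegfc, Angpt1 and Angpt2. They were counted in dissociated cells of the whole aorta-gonads-mesonephros (AGM) region of mouse embryos at embryonic day 11, the region in which the first blood stem cells arise beside the dorsal aorta. There was 1 library of PDGFRβ+/+ (WT) embryos and 1 of PDGFRβ-/- (KO) embryos, both made with the 10x 3′ chemistry and each loaded for the recovery of 7000 cells. The knockout line was kept as heterozygotes on the C57BL/6J background, and neither library received any other treatment. With 1 library per genotype no difference between the genotypes could be tested, so the intervals given are 95% intervals that cover counting error alone. They leave out the variation between embryos, whose number per library is not given in the sources used here.

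Barcodes with at least 2000 unique molecular identifiers (UMIs) and under 10% mitochondrial UMIs were taken as cells. They numbered 8253 in WT and 8165 in KO, with medians of 13321 and 12391 UMIs, and 20 barcodes (0.242% and 0.245%) were common to both libraries. Pdgfrb, the deleted gene, stood at 43.1 counts per 1e6 UMIs (CPM) in WT and 7.09 CPM in KO, and 801 cells of the KO library (9.81%) still held a UMI of it, against 2789 WT cells (33.8%). Xist stood at 793 CPM for WT and 0.415 CPM for KO, and the genes of the Y chromosome together at 0.0266 and 163 CPM. Genotype, sex and library therefore cannot be told apart in any WT to KO difference below. Cells were put into classes by lists of marker genes that hold none of the 10 genes. The endothelial class had 110 WT cells (1.33%) and 98 KO cells (1.20%). Of its 10 leading genes, 9 in WT and 8 in KO belonged to the endothelial list, and 0 to the list of another class. The class was gated on that list, and cells that also passed the gate of an unrelated class were set apart. These counts are therefore no independent check of the class. Levels are set side by side over 10 classes with single sets of markers, and the cells left over (995 WT and 907 KO cells in no class, mixed cells and small classes) count only among the other cells. The median depth of the endothelial class differed between the libraries, at 17474 UMIs in WT and 28361.5 in KO.

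VEGF-A is made by many tissues and binds the receptor tyrosine kinases encoded by Kdr (VEGFR2), which carries most of the growth signal, and Flt1 (VEGFR1), which binds the ligand tightly and can act as a decoy. VEGF-C acts mainly through Flt4 (VEGFR3), and Nrp1 is a co-receptor of VEGF that also serves semaphorins in nerves. The angiopoietins act on the receptor Tek (Tie2), with Angpt1 as the steady agonist and Angpt2 as a ligand that can block or weakly activate it, while Tie1 is a related receptor that modulates Tek.

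On GRCm38, Kdr lies at chr5:75932827-75978458, Flt1 at chr5:147561604-147726011 and Tie1 at chr4:118471191-118490061, all on the minus strand. Tek lies at chr4:94739289-94874976 and Flt4 at chr11:49609263-49652739, both on the plus strand. Nrp1 is found at chr8:128358604-128503363 and Vegfc at chr8:54077606-54187096 on the plus strand. Angpt2 is at chr8:18690263-18741562, Angpt1 at chr15:42424723-42676977 and Vegfa at chr17:46016993-46032369, on the minus strand.

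Since Kdr, Flt1, Flt4, Tek and Tie1 shared a peak in the same cells, the 250 bases before their transcription starts were read from the RefSeq promoters of GRCm38.p6, in which 8 of the 10 genes had an entry. Angpt1 and Angpt2 had none. One short form of the site of ETS factors, the family best known for endothelial genes, was searched as AGGAAG on both strands. Other forms of the site were not searched, so a gene without AGGAAG may still hold one. AGGAAG was found before 2 of the 5 receptors, Flt1 and Tie1, against 29.5% of 32851 promoters. The sequences of Kdr, which leads in level, and of those with a match are given 5′ to 3′, with the matches in capitals (CTTCCT is the match read on the opposite strand).
Kdr, chr5:75978456-75978705, minus strand: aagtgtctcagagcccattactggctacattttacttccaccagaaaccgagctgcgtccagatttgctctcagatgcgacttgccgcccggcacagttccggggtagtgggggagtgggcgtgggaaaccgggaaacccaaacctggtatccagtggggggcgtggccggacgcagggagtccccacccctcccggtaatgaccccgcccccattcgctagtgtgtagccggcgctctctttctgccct
Flt1, chr5:147726012-147726261, minus strand: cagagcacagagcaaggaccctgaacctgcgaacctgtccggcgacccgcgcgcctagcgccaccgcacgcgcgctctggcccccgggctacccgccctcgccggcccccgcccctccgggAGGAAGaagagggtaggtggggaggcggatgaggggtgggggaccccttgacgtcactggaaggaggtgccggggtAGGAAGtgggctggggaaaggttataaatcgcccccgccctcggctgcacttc
Tie1, chr4:118489850-118490099, minus strand: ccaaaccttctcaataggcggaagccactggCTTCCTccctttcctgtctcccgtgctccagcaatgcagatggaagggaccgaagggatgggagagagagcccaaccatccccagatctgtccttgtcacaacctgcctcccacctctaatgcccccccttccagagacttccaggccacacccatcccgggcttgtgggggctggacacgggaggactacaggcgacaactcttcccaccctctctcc
The matches of Flt1 began 129 and 53 bases before the start on its own strand, and that of Tie1 at 219 bases on the opposite strand. Outside these 5 receptors, Nrp1 also had 1 match, on its own strand, and its sequence is not printed. Among the 5 receptors, the Sp1 letters GGGCGG were found before 3, against 32.7% of promoters. The GATA letters AGATAA and the hypoxia-response letters ACGTG, searched likewise on both strands, were before 0 of them, against 9.99% and 16.6%. None of these 4 short motifs was found before all 5 genes.

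All 6 receptors were higher in endothelial cells than in the other cells of both libraries, and 5 of them by at least 24.9-fold. In the WT library, Kdr reached 424 CPM (402 to 448) in endothelial cells against 17.1 CPM in all others, and in KO 510 CPM (489 to 533) against 6.01. Flt1 reached 239 CPM (222 to 257) against 4.82 in WT, and 330 CPM (313 to 349) against 2.95 in KO. These receptors of VEGF-A were thus 24.9-fold and 49.6-fold higher in WT endothelial cells. Tie1, which had the largest ratio in WT (185-fold, against 144-fold for Flt4), reached 207 CPM (191 to 223) for WT and 206 CPM (192 to 220) for KO, and 1.12 and 0.977 CPM elsewhere. Tek stood at 86.9 CPM (77.0 to 97.7) and 86.2 CPM (77.4 to 95.7), against 1.33 and 0.695 CPM in other cells. Flt4 was at 70.3 CPM (61.4 to 80.1) and 80.5 CPM (72.1 to 89.7), against 0.490 and 0.333 CPM, and in KO its ratio was above that of Tie1 (242-fold and 210-fold). Within the class, Kdr was the highest receptor and Flt1 came next, though the WT intervals of Flt1 and Tie1 overlapped, and Flt4 and Tek could not be separated by their intervals. UMIs of the 3′ ends do not scale with gene length, so levels of different genes are set side by side without dividing by length.

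The median of the log2 ratios of endothelial over other cells was 5.83 for the 6 receptors in WT and 6.88 in KO, where all genes with enough UMIs had medians of -0.28 and -0.39. In WT, 6 of 6 receptors were past 2-fold, a size reached by 10.5% of all genes in that direction. In KO it was again 6 of 6, beside 10.4% of all genes. For Kdr, the level in other cells differed more between the libraries than that in endothelial cells, and it is given by class below.

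Nrp1 was the exception among the receptors. Its endothelial level of 180 CPM (166 to 195) for WT and 172 CPM (160 to 185) for KO was 2.18-fold and 2.67-fold above that of other cells, and it had the widest range of sources. In WT, neural cells (mainly of the neural crest) held 196 CPM (185 to 207), whose interval overlapped that of endothelial cells, and smooth muscle cells 154 CPM (146 to 162). In KO the order was neural 208 CPM (195 to 222), smooth muscle 182 CPM (171 to 195) and endothelial cells, and the intervals of smooth muscle and endothelial cells overlapped. Other mesenchyme (96.7 and 67.5 CPM), coelomic epithelium (96.2 and 57.4 CPM) and splanchnic mesenchyme (63.8 and 67.7 CPM) lay between, as did myeloid cells, with intervals of 71.5 to 89.3 CPM in WT and 83.5 to 106 CPM in KO. In contrast, skeletal muscle progenitors (14.4 and 10.7 CPM) and erythroid cells (9.02 and 4.90 CPM) held little.

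**Figure D1:**
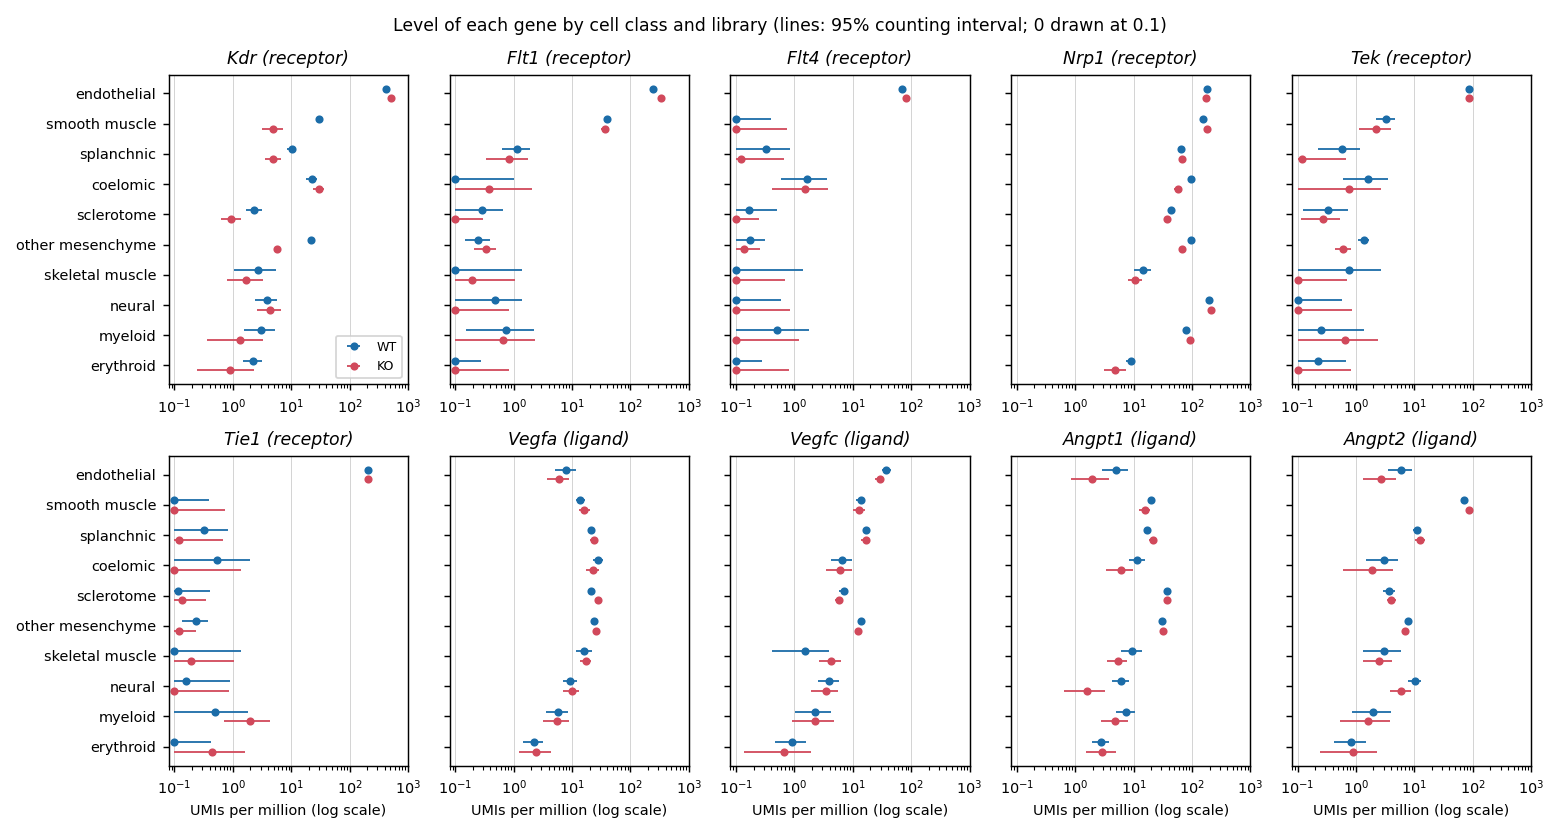
Level of each of the 10 genes in CPM (log axis) in 10 cell classes of the WT and KO libraries, with lines for the 95% counting interval and values of 0 drawn at 0.1. Kdr, Flt1, Flt4, Tek and Tie1 stand highest in endothelial cells (70.3 to 510 CPM), Nrp1 is also high in neural and smooth muscle cells, and Angpt2 stands highest in smooth muscle at 71.8 and 88.2 CPM.

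The receptors were read from the same cells. Of the endothelial cells, 88 of 110 in WT and 82 of 98 in KO (83.7%) held a Kdr UMI, and 74.5% and 78.6% a Tie1 UMI. In erythroid cells, which should lack them and had medians of 16561.5 and 19517 UMIs, the shares were 1.91% and 1.87% for Kdr and 0.136% and 0.935% for Tie1. As depth differed, every cell was also thinned to 2000 UMIs, after which Tie1 was found in 25.5% and 30.6% of endothelial cells and Flt1 in 29.1% and 44.9%. Unthinned, the shares for Flt1 were 64.5% and 77.6%. Among endothelial cells with at least 10000 UMIs (70 in WT and 71 in KO), the median cell held UMIs of all 5 of Kdr, Flt1, Flt4, Tek and Tie1. Kdr, Tek and Tie1 were found together in 58 of these cells in each library, or 82.9% (72.0 to 90.8%) in WT and 81.7% in KO. Of smooth muscle cells of that depth, 0 of 326 in WT and 0 of 174 in KO held all 3. The class had 0 Tie1 UMIs in either library, so the count of all 3 adds nothing to that. Its exact intervals, which cover counting error only, reach 1.13% and 2.10% of cells.

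Among the cells outside the endothelium, Kdr and Flt1 each had a source of their own. Flt1 stood at 40.4 CPM (36.5 to 44.7) for WT and 36.3 CPM (31.2 to 42.0) for KO smooth muscle cells, the only other of the 10 classes in which it passed 2 CPM. The same cells held 0 UMIs of Flt4 and of Tie1 in either library. Kdr was found in coelomic epithelium, the lining of the body cavity, at 22.6 CPM (18.0 to 28.0) and 29.6 CPM (23.4 to 36.9). In WT it was also found in smooth muscle at 29.4 CPM and in the large class of other mesenchyme at 21.7 CPM, and the interval of coelomic cells overlapped those of both. Endothelial cells, with 2.13% of all UMIs in WT and 2.86% in KO, therefore held 35.1% and 71.5% of the Kdr UMIs of their library, but 80.1% and 86.1% of those of Tie1. Cells of mixed class, which carry markers of unrelated classes and may be pairs of cells, held a further 18.3% and 9.81% of the Flt1 UMIs.

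**Figure D2:**
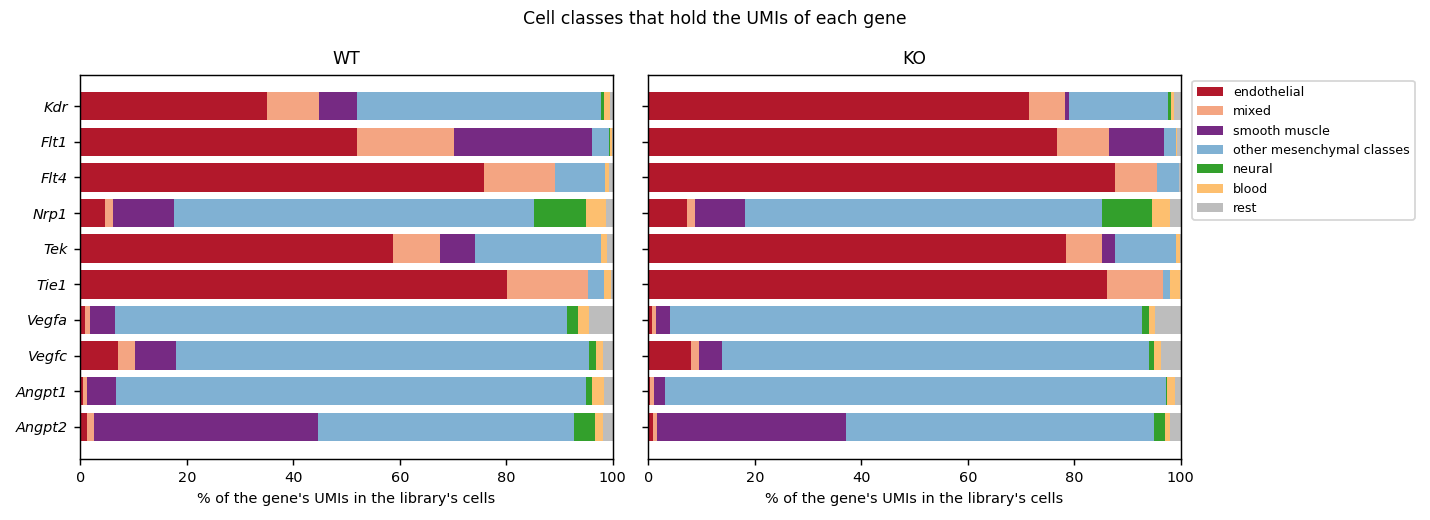
Share of the UMIs of each gene, in percent of those in the cells of the library, that lay in each group of cell classes, for WT (left) and KO (right). Tie1 UMIs lay mainly in endothelial cells (80.1% and 86.1%), ligand UMIs in mesenchymal classes, and the endothelial share of Kdr was 35.1% in WT and 71.5% in KO.

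The ligands showed the opposite distribution, except for Vegfc. In endothelial cells Vegfa was at 7.81 CPM (5.06 to 11.5) for WT and 5.89 CPM (3.78 to 8.77) for KO, from 25 and 24 UMIs, against 18.7 and 23.2 CPM in other cells. Angpt1 had 16 UMIs in WT (2.86 to 8.12 CPM) and 8 in KO (0.848 to 3.87 CPM), against 23.0 and 26.8 CPM elsewhere. Angpt2 was at 5.94 and 2.70 CPM, against 10.8 and 8.85 CPM. Smooth muscle alone held 42.1% and 35.4% of the Angpt2 UMIs, and other mesenchyme was at 7.79 and 6.80 CPM. The WT log2 ratio of Angpt2 in endothelial over other cells was -0.87, and 0.55 under 5% mitochondrial UMIs. The median log2 ratio of endothelial over other cells was -1.06 in WT and -1.85 in KO for the 4 ligands. In the opposite direction, Vegfc reached 37.5 CPM (31.1 to 44.8) for WT and 29.0 CPM (24.0 to 34.7) for KO endothelial cells, 3.49-fold and 2.96-fold above other cells, and was the 1 ligand of 4 past 2-fold on that side. More than 2-fold lower in endothelial cells were 2 of the 4 in WT, beside 32.7% of all genes, and 3 of the 4 in KO, beside 35.5%.

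The ligands differed in their classes outside the endothelium, and Vegfa had no single leading one. In WT its highest levels were 27.7 CPM (22.6 to 33.7) in coelomic epithelium, 23.4 CPM (22.2 to 24.5) in other mesenchyme, 21.0 CPM in splanchnic mesenchyme of the gut and 20.9 CPM (18.9 to 23.2) in sclerotome, the precursor of the vertebrae, with neighbouring intervals that overlapped. In KO it led in sclerotome at 27.4 CPM (25.5 to 29.3) and other mesenchyme at 26.0 CPM (24.8 to 27.3). Erythroid cells held the least, at 2.20 and 2.45 CPM.

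Angpt1 was a gene of sclerotome and general mesenchyme. It stood at 37.7 CPM in sclerotome in both libraries (34.9 to 40.7 in WT, 35.52 to 39.97 in KO) and at 30.1 CPM (28.9 to 31.5) and 32.1 CPM (30.8 to 33.5) in other mesenchyme. In smooth muscle it was at 20.2 and 15.5 CPM. Neural cells, at 5.99 and 1.61 CPM, had levels near those of the endothelium.

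Angpt2 was concentrated in smooth muscle cells. Its level there was 71.8 CPM (66.5 to 77.4) for WT and 88.2 CPM (80.1 to 96.8) for KO, and the next of the 10 classes was splanchnic mesenchyme with 11.2 and 12.6 CPM. Smooth muscle cells held 6.30% of all UMIs in WT and 3.48% in KO, but 42.1% and 35.4% of the Angpt2 UMIs. Vegfc, besides its endothelial level, was at 17.1 and 16.7 CPM in splanchnic mesenchyme, 13.8 and 12.9 CPM in smooth muscle and 13.9 and 12.4 CPM in other mesenchyme.

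The level of Angpt2 differed between fractions of the smooth muscle class. Cells with a UMI of Rgs5, a marker of mural cells around vessels, numbered 224 in WT and 139 in KO. They held Angpt2 at 101 CPM (92.6 to 109) and 104 CPM (93.9 to 115). In cells without one, the level was 24.2 CPM (19.4 to 29.9) and 33.5 CPM (23.6 to 46.1), still above that of splanchnic mesenchyme. Rgs5 is on the gate list of the class, and cells with it were deeper. Their medians were 18354.5 UMIs in WT and 20066 in KO, against 14700.5 and 13680 without it. Flt1 followed the same division, at 48.6 and 42.1 CPM with Rgs5 and 26.7 and 16.3 CPM without. In the smooth muscle cells with a UMI of Wnt2, a splanchnic signal, Angpt2 was low at 17.5 CPM in WT (139 cells) and 41.6 CPM in KO (25 cells), against 113 and 99.7 CPM in the rest. Kdr had the reverse pattern in WT, with 63.1 CPM (55.6 to 71.3) in the Wnt2 cells and 4.08 CPM (2.56 to 6.17) in the others. In KO the Kdr levels of these fractions, 6.09 CPM (2.23 to 13.2) and 4.53 CPM (2.69 to 7.16), had overlapping intervals. Kdr in the Wnt2 cells was thus lower in KO than in WT, with a log2 ratio of -3.37 (-4.83 to -2.23). The KO Wnt2 cells had a median of 34354 UMIs, against 22564 in WT. The gene Hand1, taken up below, was at 5.07 CPM in them and 108 CPM in those of WT. Whether these cells are of the same kind in the libraries was not tested. Flt1 did not go with Angpt2 in the division by Wnt2. It was higher in the Wnt2 cells, at 47.6 CPM against 35.0 in WT and 76.1 CPM against 26.4 in KO.

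The next question was how the signals differed between the libraries in endothelial cells. For 4 of the 6 receptors the interval of the ratio held 0. The log2 ratio of KO over WT was -0.01 (-0.16 to 0.14) for Tie1, -0.01 (-0.24 to 0.22) for Tek, -0.06 (-0.23 to 0.10) for Nrp1 and 0.20 (-0.05 to 0.45) for Flt4. Taken separately, Nrp1 had ratios of 0.20 (-0.01 to 0.41) in cells with more arterial than venous marker UMIs and 0.29 (0.01 to 0.57) in cells with more venous ones. Flt1 was higher in KO by 0.47 (0.34 to 0.60) and Kdr by 0.27 (0.17 to 0.37). Both ratios lie within 2-fold. Thinned to 2000 UMIs per cell, they were 0.95 (0.36 to 1.56) for Flt1 and 0.42 (-0.03 to 0.87) for Kdr. These wide intervals hold the unthinned ratios, and that of Kdr holds 0. The ratios were larger in the 47 WT and 38 KO endothelial cells with under 5% mitochondrial UMIs, at 1.52 (1.22 to 1.84) and 0.68 (0.47 to 0.89). In those cells Nrp1 (0.64, 0.25 to 1.04) and Tek (0.52, 0.01 to 1.04) were also higher in KO, and Flt4 was at -0.20. The ratio of Flt1 was 0.50 in the arterial-higher and 0.72 in the venous-higher cells, and that of Kdr 0.28 in either.

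The 4 ligands had lower values in KO endothelial cells as reported here, but on few UMIs, and 3 of the 4 intervals held 0. The ratio was -0.41 (-1.28 to 0.46) for Vegfa, -0.37 (-0.75 to 0.01) for Vegfc, -1.14 (-2.35 to 0.01) for Angpt2 and -1.35 (-2.78 to -0.04) for Angpt1. For Vegfc the ratio was -0.01 (-0.49 to 0.47) in arterial-higher and -0.06 (-0.72 to 0.63) in venous-higher cells, and 0.82 (-0.03 to 1.75) under 5% mitochondrial UMIs. Angpt1 rests on 16 UMIs in WT, of which 37.5% lay in 1 cell, and 8 in KO, and Angpt2 on 19 and 11. These ligands are the 2 of 10 members more than 2-fold lower in KO, beside 5.16% of all genes, and 0 of 10 were more than 2-fold higher, beside 1.86%. The median over the 10 members was -0.04 and that over all genes -0.01.

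**Figure D3:**
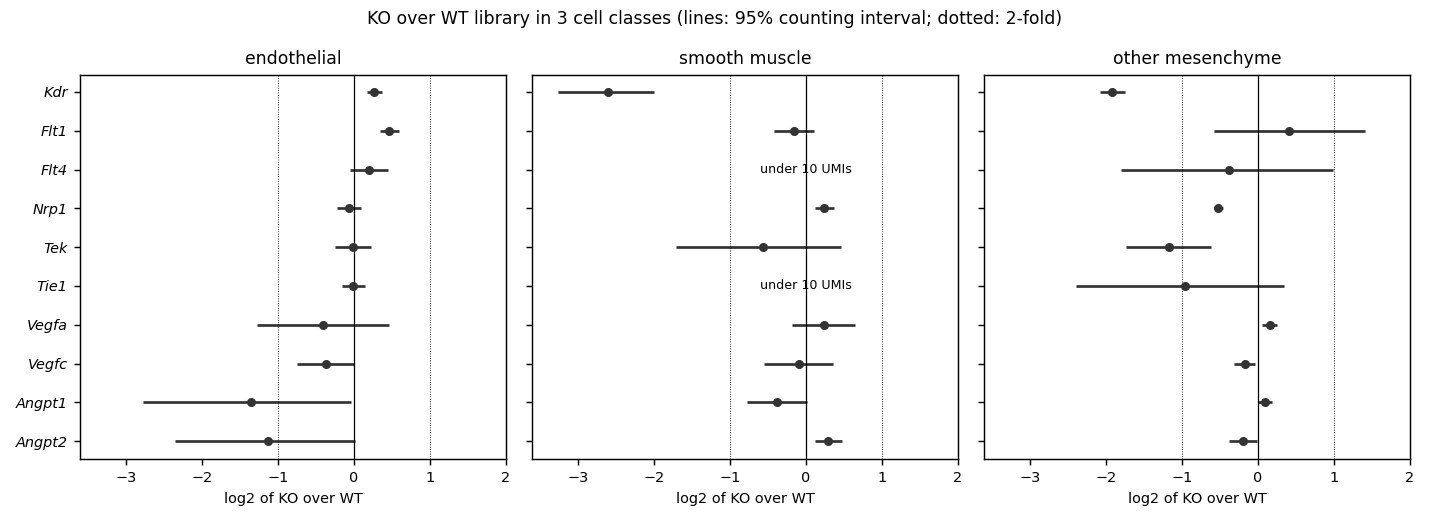
Log2 ratio of KO over WT for each gene in endothelial cells, smooth muscle cells and other mesenchyme, with lines for the 95% counting interval and dotted lines at 2-fold. Kdr lies at 0.27 in endothelial cells, -2.60 in smooth muscle and -1.91 in other mesenchyme, while Tek and Tie1 lie at -0.01 in endothelial cells.

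In smooth muscle and other mesenchyme, Kdr was the member that differed most. In smooth muscle it went from 29.4 CPM (26.1 to 33.1) in WT to 4.84 CPM (3.103 to 7.205) in KO, on 278 and 24 UMIs, a log2 ratio of -2.60 (-3.27 to -1.999). It was the only one of the 8 members with enough UMIs there that was more than 2-fold lower, beside 4.84% of genes, and 0 of 8 were higher, beside 2.93%. In other mesenchyme Kdr stood at 21.7 CPM (20.6 to 22.9) for WT and 5.77 CPM (5.21 to 6.38) for KO, a ratio of -1.91 (-2.08 to -1.75) on 1477 and 382 UMIs. Tek, at 1.35 and 0.604 CPM, was the second of 10 members past 2-fold lower, beside 3.82% of genes, and 0 of 10 were higher, beside 3.95%. Nrp1 was lower by less, at 96.7 CPM (94.4 to 99.1) and 67.5 CPM (65.6 to 69.5), a ratio of -0.52. In coelomic epithelium, by comparison, the ratio of Kdr was 0.39 (-0.07 to 0.85).

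Most of the WT Kdr UMIs in mesenchyme came from a small group of cells. The classes of mesenchymal type held 5818 WT and 6275 KO cells and 2047 and 563 Kdr UMIs. Cells with a UMI of Hand1, a factor of lateral and ventral mesoderm, or of Wnt2 made up 21.9% of the WT cells and held 80.1% of these UMIs. In KO they made up 14.1% of the cells and held 36.4%. Hand1 was itself among the genes that led in WT mesenchymal cells with a Kdr UMI, at 87.6 CPM against 7.64 in the others. The division was made after values had been seen, so these shares describe the cells and are no independent result. Cells with a UMI of both numbered 486 in WT and 41 in KO, or 8.35% and 0.653%. In them Kdr reached 109 CPM (104 to 115) for WT and 56.0 CPM (45.0 to 69.0) for KO. The level was 20.4 and 5.88 CPM with Hand1 alone and 13.5 and 4.74 CPM with Wnt2 alone. In cells with neither it was 5.02 CPM (4.54 to 5.53) and 3.96 CPM (3.56 to 4.39). The median depth of the cells with both was 18178.5 UMIs in WT and 38668 in KO, and the part of depth in their number was not tested.

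The WT cells with Hand1 and Wnt2 held other receptors as well. Nrp1 stood at 283 CPM (274 to 293) in them, above its endothelial level of 180 CPM, and at 61.8 CPM in cells with neither gene. Tek was at 7.56 and 0.345 CPM and Flt1 at 12.5 and 2.48 CPM in the same order. In KO, the cells with both genes had Nrp1 at 137 CPM (120 to 157), Flt1 at 5.67 CPM and Tek at 1.26 CPM, from 218, 9 and 2 UMIs. The endothelial markers Cdh5 (0.894 CPM) and Pecam1 (1.30 CPM) were near 0 in the WT cells. Both are on the endothelial list, and cells that passed that gate had been set apart, so this follows in part from the gate. The matrix genes Lum (1053 CPM) and Dcn (1077 CPM) and the keratin Krt8 (335 CPM) were high in the WT cells with Hand1 and Wnt2. In WT cells with neither gene they were at 49.4, 66.6 and 9.96 CPM. Lum, Dcn and Krt8 were also among the genes that led in WT mesenchymal cells with a Kdr UMI, and serve as a description. The VEGF ligands did not follow: Vegfa was at 16.1 CPM in the WT cells with both and 23.2 CPM in those with neither, and Vegfc at 12.8 and 11.6 CPM. In the KO cells with both, Lum was at 97.6 CPM, Dcn at 126 CPM and Krt8 at 184 CPM. In KO cells with neither, these stood at 74.3, 66.3 and 4.99 CPM. Lum and Dcn thus did not mark the KO cells as they did those of WT. Whether the cells with both are of the same kind in the libraries was not tested.

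**Figure D4:**
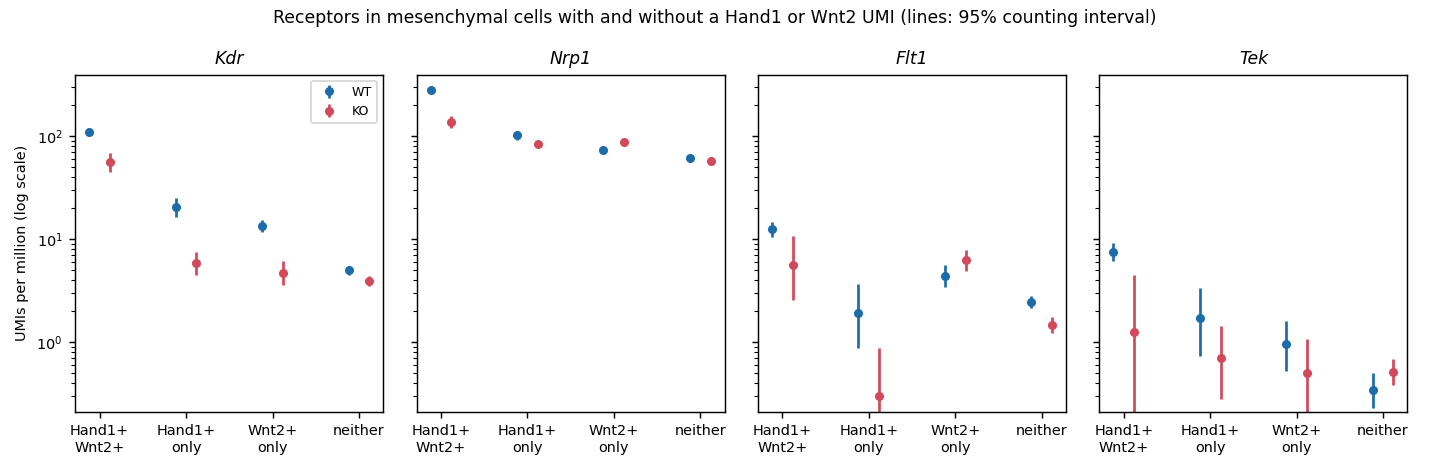
Levels of Kdr, Nrp1, Flt1 and Tek in CPM (log axis) in mesenchymal cells with UMIs of both Hand1 and Wnt2, of 1 of them or of neither, with lines for the 95% counting interval that may run past the axis. Kdr stands at 109 CPM for WT and 56.0 CPM for KO cells with both genes, and at 5.02 and 3.96 CPM in cells with neither.

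Without the cells that held a UMI of Hand1 or Wnt2, the differences of Kdr and Nrp1 in other mesenchyme were smaller. Those of Tek in other mesenchyme and of Kdr and Angpt2 in smooth muscle changed sign, but for the smooth muscle values the new intervals held 0. Others were not smaller, such as Nrp1 in smooth muscle (0.24 with them and 0.26 without) and Vegfc in other mesenchyme (-0.17 and -0.23). In other mesenchyme the ratio of Kdr was -0.47 (-0.72 to -0.22), at 6.26 and 4.53 CPM, that of Nrp1 -0.03, and that of Tek 1.16 on 12 and 30 UMIs. In smooth muscle, with 267 WT and 169 KO cells left, the ratio of Kdr was 0.30 (-0.77 to 1.36). That of Angpt2 went from 0.30 (0.12 to 0.47) to -0.16 (-0.35 to 0.02). The genotype and the share of such cells in each library moved together, and which part of the AGM and its surroundings entered each library was not tested.

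Summed over all cells outside the endothelial class, ligand levels differed by less than 2-fold between the libraries. There the log2 ratio of KO over WT was 0.31 (0.24 to 0.39) for Vegfa and 0.22 (0.15 to 0.29) for Angpt1. For Vegfc it was -0.14 (-0.24 to -0.03) and for Angpt2 -0.29 (-0.40 to -0.18). The median of the 4 ligands was 0.04, where that of all genes was 0.06. The classes differed in number between the libraries, with 1161 sclerotome cells in WT and 1905 in KO, and 416 and 205 smooth muscle cells. Within sclerotome, where Angpt1 was highest, its ratio was 0.00 (-0.14 to 0.14), and that of Vegfa was 0.39 (0.21 to 0.57). Within smooth muscle, where Angpt2 was highest, its ratio was 0.30, opposite in sign to that over all cells. Weighted to the same mix of classes, the ratio of Angpt2 outside the endothelium was 0.02. In neural cells Angpt1 stood at 38 UMIs in WT and 7 in KO, a ratio of -1.90 (-3.31 to -0.72).

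Endothelial cells were divided by the sum of 7 arterial against that of 3 venous marker genes, into 47 arterial-higher and 47 venous-higher cells in WT and 32 and 56 in KO. In WT Nrp1 was at 275 CPM (249 to 302) in the arterial-higher cells and 96.0 CPM (81.5 to 112) in the venous-higher cells, and in KO at 316 CPM (284 to 351) and 117 CPM (105 to 130). Its relative Nrp2, a co-receptor of veins and lymphatics, had the reverse order with 120 and 268 CPM in WT and 82.6 and 265 CPM in KO. Vegfc was an arterial-higher gene as well, at 58.0 CPM (46.5 to 71.4) against 19.1 CPM (13.0 to 27.1) in WT and 57.7 CPM (44.6 to 73.6) against 18.3 CPM (13.7 to 24.0) in KO. Flt1 was higher on the arterial side by 0.81 on the log2 scale in WT and 0.58 in KO. Kdr was near equal on both sides, with a log2 ratio of 0.12 in either library. The values for Tek were -0.33 (-0.69 to 0.02) and -0.12 (-0.48 to 0.23), for Tie1 0.27 and 0.47, and for Flt4 0.42 (0.03 to 0.81) and -0.03 (-0.40 to 0.32).

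**Figure D5:**
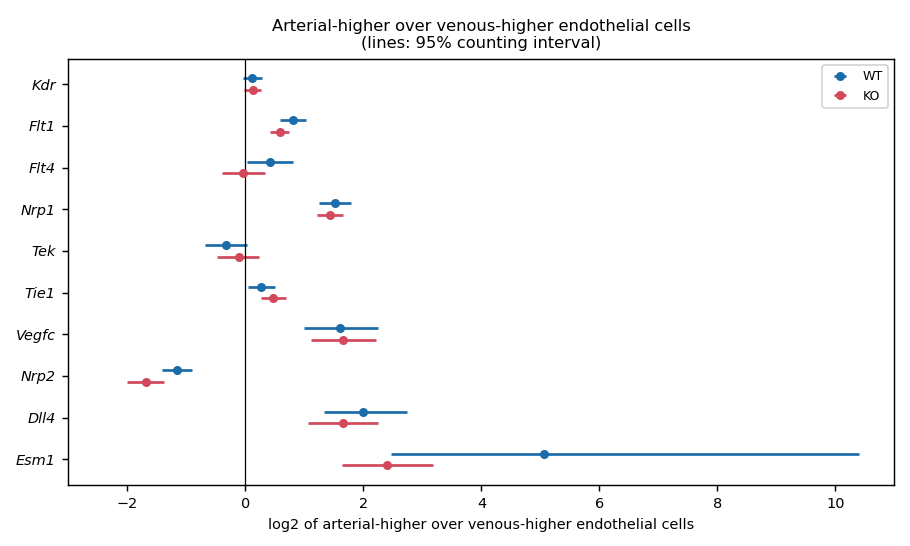
Log2 ratio of arterial-higher over venous-higher endothelial cells for 7 of the members and for Nrp2, Dll4 and Esm1 in WT and KO, with lines for the 95% counting interval. Nrp1 (1.52 and 1.43) and Vegfc (1.60 and 1.66) lie on the arterial side in both libraries, Nrp2 on the venous side (-1.16 and -1.68), and Kdr at 0.12.

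Endothelial cells with a UMI of Kit, a receptor found on blood-forming cells of the aorta, numbered 45 in WT and 46 in KO, and were much deeper than those without, at medians of 44460 and 52393 UMIs against 9089 and 11979. Flt4 was higher in them in both libraries, at 81.5 CPM against 49.4 in WT and 87.1 against 66.3 in KO. Nrp1 was lower, at 153 CPM against 230 in WT and 163 against 192 in KO. Kdr was higher in the WT cells with Kit, 456 CPM against 365, and near equal in KO, 504 against 524, so that the ratio of KO over WT was 0.14 with Kit and 0.52 without.

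A list of 25 other genes of these pathways was examined beside the members. In endothelial cells of WT, 12 of the 25 were more than 2-fold above other cells and 8 more than 2-fold below, beside 10.5% and 32.7% of all genes. In KO the counts were 12 and 9, beside 10.4% and 35.5%. Plxnd1, a semaphorin receptor of endothelium, led with 418 and 461 CPM, ahead of Nrp2 (194 and 213 CPM) and Rasip1 (174 and 233 CPM), which acts in the forming of vessel lumens. Ptprb, the phosphatase that dampens Tek and Kdr, was at 146 and 127 CPM. Between the libraries, 20 of the 25 had enough UMIs in endothelial cells, and of these 1 was more than 2-fold higher in KO and 2 were more than 2-fold lower, beside 1.86% and 5.16% of all genes. The higher one was Apln, the ligand of sprouting endothelium, at 5.94 CPM for WT and 27.0 CPM for KO, a log2 ratio of 2.19 (1.47 to 2.97) that was 0.90 in cells thinned to equal depth. Its 19 UMIs in WT lay in 13 cells and its 110 in KO in 36, with 16.4% of the KO UMIs in 1 cell, and the level was higher in the KO venous-higher cells (32.1 CPM) than in the arterial-higher ones (13.3 CPM). The lower ones were Vegfd, with 12 UMIs in WT and 0 in KO, and Svep1, with 11 and 5 and an interval of -3.36 to 0.16 around -1.49.

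Esm1 and Dll4 are known to respond to these pathways, and Foxo1 encodes a factor whose protein acts downstream of Tek. Esm1 was at 10.0 CPM for WT and 17.7 CPM for KO endothelial cells, a ratio of 0.82. Foxo1 was at 42.2 and 62.6 CPM, a ratio of 0.57, and its RNA level does not measure the activity of its protein. Dll4, the Notch ligand that VEGF induces in tip and arterial cells, was at 34.1 and 24.8 CPM, a ratio of -0.46. Esm1 and Dll4 were both arterial-higher genes, with Dll4 at 56.7 against 14.1 CPM in WT and 48.8 against 15.6 CPM in KO, and Esm1 at 41.7 against 7.95 CPM in KO. On either side the Dll4 intervals of the libraries overlapped. Arterial-higher and venous-higher cells numbered 47 and 47 in WT and 32 and 56 in KO. The part of this mix in the Dll4 ratio was not tested. Outside the endothelium, 2 of the 20 genes measured in smooth muscle were more than 2-fold higher in KO and 1 lower, beside 2.93% and 4.84% of all genes. In other mesenchyme 0 of 24 were higher and 1 lower, beside 3.95% and 3.82%. Vegfd, low in KO endothelium, was at 7.93 CPM for WT and 25.2 CPM for KO smooth muscle. Nrp2 in splanchnic mesenchyme was at 55.9 and 152 CPM. The leading gene of that class was Barx1 in WT (533 cells) and Nkx2-3 in KO (382 cells). Whether the class held the same kinds of cells in the libraries was not tested.

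Lastly, the genes whose levels were most like those of each member were found over 22 points, the cell classes of each library with at least 50 cells, by Pearson correlation of log2(CPM + 1). These points share libraries and differ in depth, and the values are a description. Tie1 was most like Aplnr (0.99), a receptor of venous endothelium, Flt4 was most like Gpr182 (0.98), and Tek was most like the endothelial gate markers Emcn (0.98) and Sox18. Kdr was most like Epha2 (0.92) and Tmem88, while Flt1, with its smooth muscle level, was most like Gm13056 (0.91), Esam and Lims1. Nrp1 was most like Anxa5 (0.95). Among the ligands, Angpt1 was most like the mesenchymal genes Bmp5 (0.97) and Dnm3os, Angpt2 was most like Htra3 (0.92), Jag1 and Foxs1, Vegfa was most like Htatsf1 (0.96), and Vegfc was most like Ldb2 (0.94). Of the pairs of members, Flt4 and Tie1 (0.96), Flt4 and Tek (0.93) and Tek and Tie1 (0.93) were the closest.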

How the data were processed

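The authors aligned the reads of each library to mm10 (GRCm38) with Cell Ranger 3.1.0 and deposited unfiltered UMI counts, whole numbers for each gene in each barcode, with no normalization and no cells called. Here, barcodes with at least 2000 UMIs and under 10% mitochondrial UMIs were kept, which removed 954 WT and 992 KO barcodes for their mitochondrial share. The libraries held 179743201 and 174597654 UMIs. A cell entered a class with UMIs of at least 3 markers of its list and a minimum of marker UMIs per 10000 (10 for endothelial cells), a minimum set after the spread of the lists had been seen. No doublet caller was run. Cells passing the gates of unrelated classes were set apart as mixed (51 in WT, 24 in KO), and 12 and 6 of these also passed the endothelial gate. Free RNA, estimated from barcodes with at most 100 UMIs, made up about 0.967% and 0.837% of the UMIs of a cell.

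Levels are UMIs summed over a class and scaled to counts per 1e6 UMIs (CPM), with exact Poisson intervals. Shares have exact Clopper-Pearson intervals, and ratios exact conditional binomial ones, all at 95%. Ratios of KO over WT, and their counts past 2-fold, were made for genes with at least 10 UMIs in both libraries together. For endothelial over other cells, the shares and medians of all genes used those with at least 10 UMIs in all cells of 1 library. These were 17672 genes in WT and 17588 in KO, and they may have had 0 endothelial UMIs. A fold of a named gene against 0 uses a floor of 3 counts, and the shares of all genes use none. The WT to KO contrast has no test. All 10 members are named, and of the other pathway genes those past 2-fold in endothelial cells and examples of the list. For each member, the genes most like it were the 3 with the highest correlation among genes with at least 100 UMIs. The members and lists were chosen with earlier results of these data known, and the divisions by Hand1, Wnt2, Rgs5, Kit and arterial or venous markers, and Lum, Dcn, Krt8 and the pathway examples, after values had been seen. Scripts were tested on simulated data. Python 3.11.15, numpy 2.4.6, scipy 1.17.1, pandas 2.3.3, R and edgeR 4.0.16 (TMM factors only) were used, with gene positions of GENCODE M21.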

Additional observations from a re-analysis of the deposited data

Results flagged for a closer look

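Kdr and Angpt1 stood out because the libraries differed in opposite directions in 2 cell classes. For Kdr the log2 ratio of KO over WT was 0.27 in endothelial cells and -1.91 in other mesenchyme. For Angpt1 it was -1.35 in endothelial cells, on 16 and 8 UMIs, and 0.093 in other mesenchyme, on 2047 and 2127 UMIs. Without cells that held a Hand1 or Wnt2 UMI, the endothelial ratio of Angpt1 was -0.64 (-2.21 to 0.91), on 9 and 8 UMIs. Over the other alternatives it ran from -3.48 to -0.17, and the ratio in other mesenchyme from -0.18 to 0.13. With 1 library per genotype, the difference between the classes was not tested for either gene.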

How the results depend on the processing

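No paired analysis was possible because each genotype has 1 library, and no replicate could be left out. Of 460 recomputed values of single genes, 363 stayed inside the counting interval of the value reported, and 75 moved outside it with the same sign. Another 12 moved outside it with the opposite sign where the interval held 0, and 10 changed sign where it did not. Of the 44 values that were recomputed, 29 had an interval off 0. Among these 29, 8 changed sign under at least 1 alternative. The receptor preference for endothelial cells (5.83) was 5.32 under 5% mitochondrial UMIs, 6.31 with mixed cells counted as endothelial, 6.31 as the mean of CPM per cell and 6.24 thinned to 2000 UMIs. The ligand preference (-1.06) was -0.21 under 5% mitochondrial UMIs and 0.64 thinned, where Angpt1 and Angpt2 had no endothelial UMI left. The median of the members in endothelial cells (-0.04) was 0.25 and 0.53 under these settings. That of the ligands outside the endothelium (0.04) was -0.087 and -0.082, and -0.059 without KO cells that held a Pdgfrb UMI. Genes past 2-fold numbered 815 in endothelial cells, 1020 in smooth muscle and 1310 in other mesenchyme, against 200, 359 and 537 with at least 50 UMIs and 3853, 4090 and 4746 with at least 1. Under 5% mitochondrial UMIs, which left 47 WT and 38 KO endothelial cells, these turned among values with an interval off 0: Angpt2 in endothelial over other cells (0.55), Nrp1 in smooth muscle (-0.23), Angpt1 in other mesenchyme (-0.094) and Angpt1 outside the endothelium (-0.024). With an interval that held 0, Flt4 (-0.20), Nrp1 (0.64), Tek (0.52) and Vegfc (0.82) in endothelial cells, Flt1 (0.59) and Vegfa (-0.73) in smooth muscle and Flt1 in other mesenchyme (-2.47, on 7 and 1 UMIs) changed sign there too. So did Nrp1 (0.25), Tie1 (0.65), Vegfa (0.75) and Vegfc (0.015) in endothelial cells when thinned, and Flt1 in other mesenchyme (-0.87) with doubled gates. Angpt1 in other mesenchyme was also -0.18 thinned and -0.051 without the Pdgfrb cells, and Angpt2 outside the endothelium was 0.023 at the same mix of classes. Without Hand1 or Wnt2 cells, Kdr (0.30) and Angpt2 (-0.16) in smooth muscle and Tek in other mesenchyme (1.16) changed sign, and the new intervals of the smooth muscle values held 0. The cause was not tested.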
